A study of Mus musculus with 20 samples.

Results

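The egg coat and the sperm-binding surface of the mouse oocyte were followed through 5 genes: Zp1, Zp2 and Zp3, which encode glycoproteins of the zona pellucida, Izumo1r (also called Juno), which encodes the egg receptor for the sperm protein IZUMO1, and Cd9, which encodes a tetraspanin of the egg membrane. They were chosen by name, with earlier results of these data known. All 5 were listed both among the 7543 genes of the ribosome-bound table and among the 7917 genes of the total RNA table. The samples were denuded oocytes of 3-week-old C57BL/6 females that carried RiboTag and Zp3-Cre, given 5 IU of PMSG 44 h before collection. RiboTag puts an HA tag on a ribosomal protein wherever Cre is active, and Cre is driven here by the oocyte promoter of Zp3 itself, so ribosomes pulled down through the tag come from oocytes. Oocytes were held in prophase I with 1 µM cilostamide, an inhibitor of the phosphodiesterase that breaks down cyclic AMP, and were sampled in prophase I (0 h) and, after transfer to medium without it, in early (2 h), mid (4 h) and late (6 h) prometaphase I and in metaphase I (8 h). Each of the 10 groups made by time and RNA kind had 2 libraries of 200 oocytes, which pool cells. Females without RiboTag or without Cre, and oocytes kept in cilostamide for the later times, are not among the groups.

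The zona pellucida is an extracellular coat of long filaments, built while the oocyte grows. ZP2 and ZP3 form the repeating units and ZP1 links filaments to one another. ZP2 holds the domain that sperm bind on the coat, and its cleavage after fertilisation by ovastacin, a protease released from cortical granules, ends sperm binding. JUNO is held on the egg membrane by a glycosylphosphatidylinositol (GPI) anchor and is shed after fertilisation, while CD9 is required on the egg side for fusion. Growing oocytes make these proteins from their own transcripts, and full-grown oocytes, no longer transcribing, carry what remains into the meiotic divisions.

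The 5 transcripts have short tails of noncoding sequence, and their ends are printed here because the regulated polyadenylation of oocyte mRNAs acts on letters in the 3' UTR. Annotation is that of GENCODE vM21 on GRCm38, the assembly also called mm10. Gene positions span all annotated transcripts of a gene, while exons and lengths are those of its principal coding transcript (numbered 201). The spans of Zp2 and Izumo1r run well beyond the 3' ends of these transcripts. Zp1 (ENSMUSG00000024734.8) lies at chr19:10914287-10920632 on the minus strand, with 12 exons and a 3' UTR of 34 bases. Zp2 (ENSMUSG00000030911.7) lies at chr7:120126772-120145291 on the minus strand, with 18 exons and a 3' UTR of 49 bases. Zp3 (ENSMUSG00000004948.12) lies at chr5:135980099-135988624 on the plus strand, with 8 exons and a 3' UTR of 13 bases. Among 7212 genes of the ribosome-bound table with an annotated 3' UTR, the median was 1128 bases, and 0.0693%, 0.527% and 1.1% had a shorter one than Zp3, Zp1 and Zp2. Only 124 of these genes (1.72%) had a 3' UTR of at most 60 bases. Izumo1r (ENSMUSG00000031933.17, chr9:14885814-14903949, minus strand, 5 exons) has 333 bases and Cd9 (ENSMUSG00000030342.8, chr6:125460266-125494791, minus strand, 8 exons) has 395, with 18.6% and 21.9% of genes shorter.

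The windows below are 30 bases each, written 5' to 3' on the transcript's strand, with the polyadenylation signal AATAAA in capitals.
Zp1: ttaaatggactcAATAAAccattgtttgaa
Zp2: attggacttgcaAATAAAgagactgcagtt
Zp3: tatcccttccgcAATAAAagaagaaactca
Izumo1r: catggtaccttcAATAAAaggctaggaaac
Cd9: aatttgatacatAATAAAagattataacag
These windows lie at chr19:10914297-10914326, chr7:120132360-120132389, chr5:135988595-135988624, chr9:14900027-14900056 and chr6:125460268-125460297. In Zp3 the stop codon TAA lies inside the signal itself, so coding sequence runs into the AATAAA. In Zp1 and Zp2 the signal starts 8 and 11 bases after the stop codon. All 5 genes had AATAAA in the last 50 bases of the transcript, as did 64.7% of the 7212 genes.

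The cytoplasmic polyadenylation element, bound by CPEB proteins, was searched as TTTTAT or TTTTAAT on the transcript strand of the 3' UTR. Zp1, Zp2, Zp3 and Izumo1r held neither. Cd9 held 1 TTTTAAT, 247 bases before its AATAAA, shown in capitals in the window at chr6:125460522-125460551.
Cd9: ttctgtttgtctTTTTAATgctttattcat
At least 1 such element was present in 65.7% of the 7212 genes, whose median 3' UTR was 1128 bases. In the 3' UTRs of Zp1, Zp2 and Zp3, of 34, 49 and 13 bases, a match has few places to occur. Its absence from these 3 genes therefore says little beyond their length. A match is a description of the letters only, and an annotated 3' UTR may not be the one used in these oocytes.

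**Figure D1:**
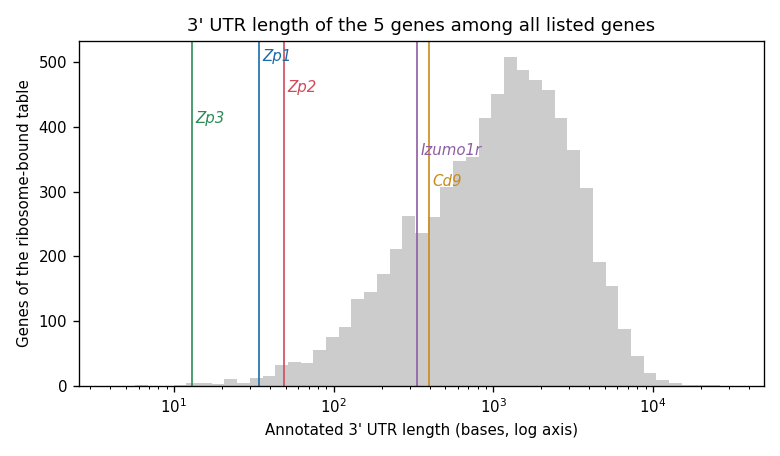
Number of genes of the ribosome-bound table (vertical axis) by annotated 3' UTR length in bases (horizontal axis, log scale), with vertical lines at the lengths of the 5 genes. Zp3, Zp1 and Zp2, at 13, 34 and 49 bases, lie at the far left, while Izumo1r (333) and Cd9 (395) lie in the lower part of the main distribution, whose median is 1128.

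The libraries held 27571236 to 51714900 reads in listed genes, as inferred from the step between the lowest values, and the Pearson r between replicates over genes was 0.949 to 0.974. On principal components of the ribosome-bound libraries, 4 h replicate 1 stood apart on the axis with 12.5% of the variance (35.2, next highest 4.88). All 10 oocyte markers looked for were listed in both tables, with a summed level of 2.70% to 4.90% of the ribosome-bound total and 1.40% to 1.69% in total RNA. On ribosomes 8 of these 10 fell at 8 h, when 21.8% of all genes did, Zar1 the most (-1.40 ± 0.16), and H1foo rose (0.93 ± 0.15). Of 16 granulosa and cumulus markers, 4 were listed in the ribosome-bound table and 6 in that of total RNA. Amh and Foxl2 were among those listed in neither. In total RNA the 6 summed to 389 and 324 at 0 h and to 428 and 550 at 8 h. The 4 summed to 199 and 207 on ribosomes at 0 h and to 524 and 529 at 8 h, at most 0.0521% of a library, with Serpine2 (1.74 ± 0.17 log2) and Cyp19a1 (1.31 ± 0.23) rising; their part in the results was not tested. Of 14 markers of blood, stroma, endothelium and theca, Pecam1 and Tek were listed and neither passed the test. Values are normalised, each a gene's CPM (its count relative to library size) times a factor of its library, so they are shares of a library. Fewer contributing cells and less RNA per cell cannot be told apart in them. Nothing in the labels ties replicates to different animals or cultures, and p-values measure only how much these samples differ.

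The comparison of each time with 0 h asked when transcripts leave ribosomes as the oocyte resumes meiosis. By 2 h Zp1, Zp2, Zp3 and Izumo1r had fallen on ribosomes, Zp3 by 1.77-fold, Zp2 by 2.02-fold, Izumo1r by 2.43-fold and Zp1 by 2.56-fold. At 8 h all 5 genes had fallen, the zona genes by 3.78-fold to 4.74-fold, Izumo1r by 2.83-fold and Cd9 by 1.90-fold. In total RNA, Zp3 at 8 h was the only fall that passed the test. Folds are on the log2(value + 1) scale. Log2 changes come from limma on log2(value + 1), a fit over all genes of a table, with Benjamini-Hochberg adjusted p-values over that table and a threshold of 0.05; ± after a log2 change is the standard error.

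Zp3, the partner of ZP2 in the zona filament, had ribosome-bound values of 8334 and 5909 at 0 h in replicates 1 and 2. They were 3848 and 4092 at 2 h, 2437 and 3024 at 4 h, 2457 and 2393 at 6 h, and 1664 and 1317 at 8 h. Both libraries of every later time lay below both of 0 h, and both 8 h libraries lay below all others. The log2 change was -0.82 ± 0.16 at 2 h (adjusted p 0.0181), -1.37 at 4 h (2.76e-05), -1.53 at 6 h (3.19e-06) and -2.24 ± 0.16 at 8 h (2.17e-08). Its call at 2 h was lost on leaving out 0 h replicate 1 (-0.57), 2 h replicate 1 (-0.78) or 2 h replicate 2 (-0.87). Each of these fits left a single library in a group, so a lost call is not by itself a smaller change. In total RNA, Zp3 was 2480 and 2559 at 0 h, 2292 and 2442 at 2 h, 2221 and 2039 at 4 h, 2370 and 1684 at 6 h, and 1595 and 1645 at 8 h. Only the 8 h fall passed the test (-0.64 ± 0.13, adjusted p 0.00599), and it no longer passed without 0 h replicate 1 (0.086) or replicate 2 (0.0772).

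Zp1, the cross-linking zona protein, had the most negative 2 h change of the 3 zona genes. Its ribosome-bound values were 3380 and 2352 at 0 h, 1065 and 1141 at 2 h, 696 and 786 at 4 h, 659 and 671 at 6 h, and 716 and 595 at 8 h. Every library from 2 h on lay below both at 0 h, both of 6 h lay below both of 4 h, and the 8 h values overlapped each of these groups. The log2 change was -1.35 ± 0.16 at 2 h (adjusted p 0.000167), -1.93 at 4 h (6.67e-07), -2.08 at 6 h (8.50e-08) and -2.11 at 8 h (3.35e-08). At 4 h, 0.0928% of the 7543 genes had a more negative change, against 1.54% at 8 h. Total RNA held 1213 and 1370 at 0 h, 1191 and 1233 at 2 h, 1204 and 989 at 4 h, 1108 and 972 at 6 h, and 1014 and 973 at 8 h. The 8 h libraries lay below those of 0 h, but the log2 change of -0.38 ± 0.12 did not pass the test (adjusted p 0.0925).

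Zp2, which carries the sperm-binding domain of the coat, had ribosome-bound values of 5411 and 5252 at 0 h, 2507 and 2779 at 2 h, 2169 and 2464 at 4 h, 2020 and 1938 at 6 h, and 1473 and 1348 at 8 h. The 0 h libraries stood well above the rest, those of 2 h to 6 h lay between 1938 and 2779, and those of 8 h were lowest. Its log2 change was -1.01 ± 0.12 at 2 h (adjusted p 0.00023), -1.21 at 4 h (8.06e-06), -1.43 at 6 h (3.73e-07) and -1.92 at 8 h (5.21e-09). In total RNA it was 1301 and 1125 at 0 h, 1153 and 1328 at 2 h, 1175 and 1160 at 4 h, 1175 and 995 at 6 h, and 1064 and 1121 at 8 h. The groups of 0 h and 2 h overlapped, both 8 h libraries lay just below both of 0 h, and the 8 h change was -0.15 ± 0.12 (95% interval -0.40 to 0.10, adjusted p 0.546).

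Izumo1r, the receptor for sperm IZUMO1, had fallen at 2 h and at every later time. The ribosome-bound values were 381 and 352 at 0 h, 154 and 146 at 2 h, 80.8 and 123 at 4 h, 108 and 123 at 6 h, and 122 and 136 at 8 h. No later library reached a 0 h value, and the lowest library was 4 h replicate 1, the one that stood apart. The log2 change was -1.28 ± 0.19 at 2 h (adjusted p 0.00205), -1.87 at 4 h (8.06e-06), -1.66 at 6 h (7.28e-06) and -1.50 at 8 h (1.08e-05). Without 4 h replicate 1 the 4 h change was -1.57 (adjusted p 0.000416), and the step from 4 h to 6 h was -0.09 (0.945). Without 2 h replicate 2 the 2 h change of -1.24 missed the threshold (0.0531). In total RNA the values were 232 and 255 at 0 h, 310 and 225 at 2 h, 228 and 229 at 4 h, 209 and 191 at 6 h, and 204 and 201 at 8 h. Both libraries of 4 h, 6 h and 8 h lay below those of 0 h, with a change of -0.26 ± 0.16 at 8 h (adjusted p 0.396).

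Cd9, the tetraspanin needed for fusion, was far lower than the others and passed the test at 8 h only. On ribosomes it was at 31.9 and 37.5 at 0 h, 26.0 and 23.7 at 2 h, 19.1 and 23.4 at 4 h, 22.8 and 19.9 at 6 h, and 20.1 and 15.7 at 8 h. These values stand for 511 to 1343 reads a library as inferred from the value steps. The standard error of its changes was 0.31, against 0.12 to 0.19 for the other genes. That limma value is drawn towards those of genes of similar level, so it is not the spread of Cd9's own replicates alone. Both 0 h libraries lay above all later ones, yet only the 8 h change passed the test (-0.92 ± 0.31, adjusted p 0.0229), and not without 0 h replicate 2 (-0.81, 0.105) or 8 h replicate 2 (-0.76, 0.148). At 2 h the change was -0.46 (95% interval -1.11 to 0.19, adjusted p 0.482). In total RNA its values were 8.32 and 18.3 at 0 h, 17.9 and 21.3 at 2 h, 15.4 and 12.3 at 4 h, 21.0 and 13.8 at 6 h, and 10.5 and 10.6 at 8 h, and the 0 h pair spanned most of the range. Cd9 also overlaps the antisense genes Gm26728 and Gm28809, and whether the counting used strand is not given in the sources used here.

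**Figure D2:**
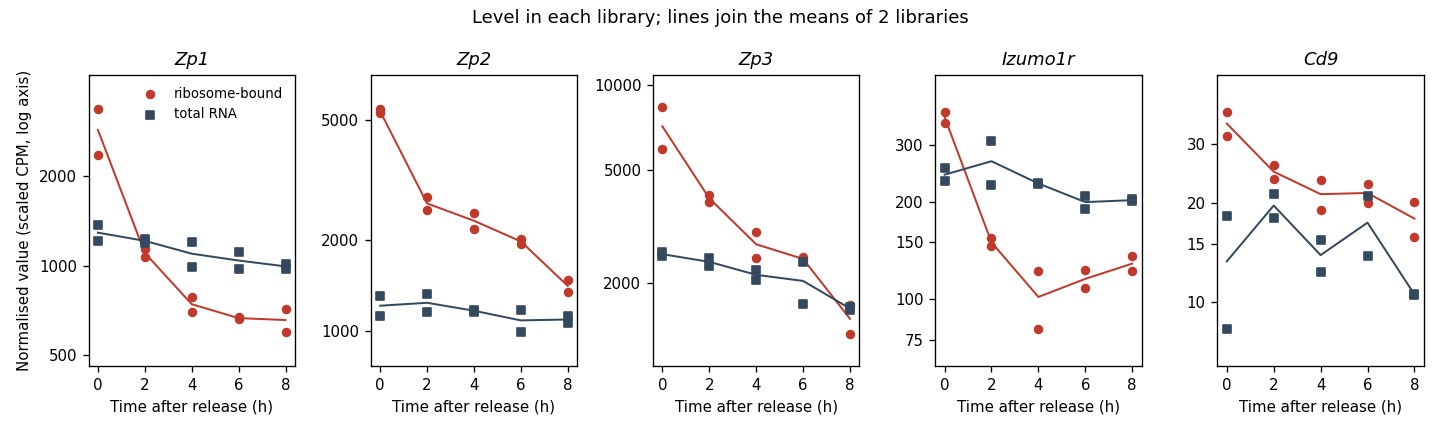
Normalised value (scaled CPM, log axis, a separate range for each gene) of each gene in every library against hours after release, with circles for ribosome-bound mRNA, squares for total RNA and lines joining the means of 2 libraries. For Zp1, Zp2, Zp3 and Izumo1r the circles drop steeply from 0 h to 2 h while the squares stay nearly level. Cd9 is lower, and its squares are more scattered than those of the other genes.

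Counted together, 4 of the 5 genes had fallen on ribosomes at 2 h, when 0.742% of 7543 genes had fallen at the same threshold. The count was 4 at 4 h (background 6.56%), 4 at 6 h (13.3%) and all 5 at 8 h (21.8%), and no member rose at any time. The members were chosen with earlier results of these data known, so these and later shares of all genes are given for scale only. At 2 h, without 2 h replicate 2, the count was 2 (Zp1 and Zp2) of 5. The median log2 change of the 5 was -1.01, -1.37, -1.53 and -1.92 at the 4 times, while that of all genes lay between -0.06 and 0.01. Without 4 h replicate 1, 4 of 5 were still called at 4 h, with Zp1 at -1.84, Zp2 at -1.11 and Zp3 at -1.21. No member passed the test between neighbouring times on ribosomes, where 0.0265% of genes had fallen from 2 h to 4 h, 0% from 4 h to 6 h and 0.597% from 6 h to 8 h. The count of 0 genes falling from 4 h to 6 h in limma compares with 374 at an unadjusted p under 0.05, none of them a member. Zp3 came nearest, at -0.71 ± 0.16 from 6 h to 8 h (adjusted p 0.0517), and passed when only genes with a mean value of at least 20 were tested (0.0363) or only the groups compared were fitted (0.0143).

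In total RNA 0 of 5 had fallen at 2 h and 4 h, when 0% of 7917 genes passed the test in limma; at an unadjusted p under 0.05, 119 genes were lower at 2 h and 152 at 4 h, none of them a member. At 6 h the count was 0 of 5 (background 0.0253%), with Zp1 (unadjusted p 0.0179) and Zp3 (0.0166) among 324 genes lower at an unadjusted p under 0.05 in limma. At 8 h it was 1 of 5, Zp3 (3.02%), and Zp1 had an unadjusted p of 0.00572. The median change of the 5 genes in total RNA was 0.03 at 2 h, -0.09 at 4 h, -0.28 at 6 h and -0.26 at 8 h.

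**Figure D3:**
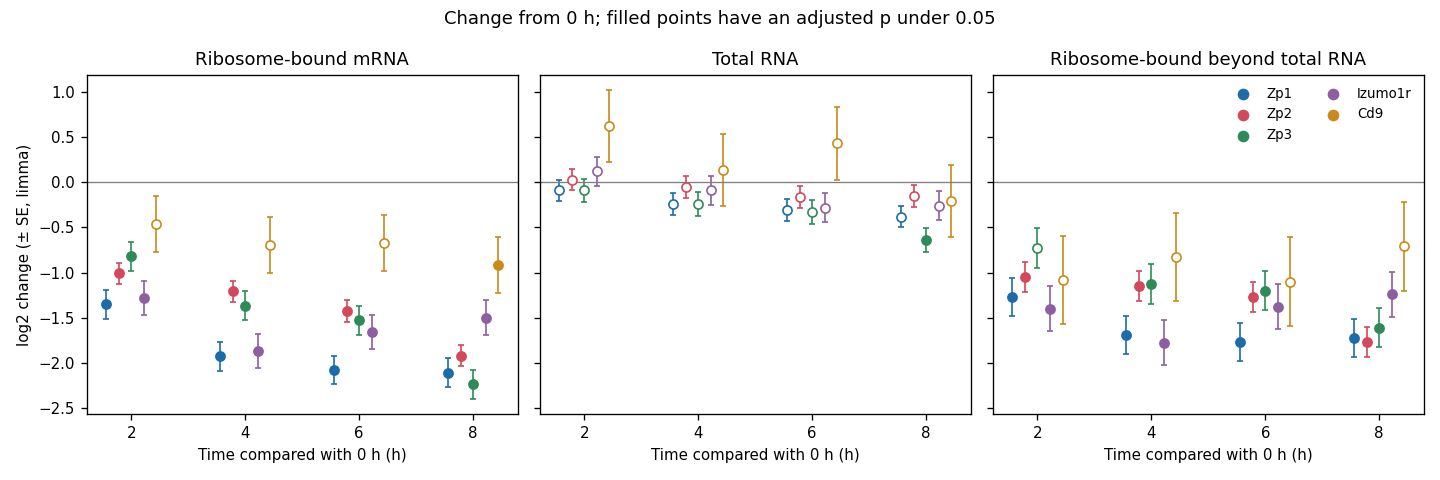
Log2 change from 0 h with its limma standard error for each gene on ribosomes, in total RNA, and as the ribosome-bound change beyond that of total RNA, against the time compared with 0 h in hours. Filled points passed an adjusted p of 0.05: 4, 4, 4 and 5 genes on ribosomes, 1 in total RNA (Zp3 at 8 h), and 3, 4, 4 and 4 beyond total RNA.

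The change on ribosomes was set against that in total RNA by the interaction of RNA kind and time, fitted over the 7346 genes of both tables. At 2 h it was -1.27 ± 0.21 for Zp1 (adjusted p 0.00576), -1.05 ± 0.17 for Zp2 (0.00576) and -1.40 ± 0.25 for Izumo1r (0.0165), while Zp3 was at -0.73 ± 0.22 (0.206) and Cd9 at -1.08 ± 0.49 (0.437). These 3 of 5 compare with 6 of 7346 genes that fell beyond total RNA at 2 h (0.0817%). The other three of the 6, named after their values were seen, were Eif5b, an initiation factor (-1.51 ± 0.22), Nrd1, a metalloprotease (-1.35), and Tubb2a, a beta-tubulin (-1.15). At this earliest time the calls were fragile: 0 of 5 passed without ribosome-bound 2 h replicate 1 (Zp1 -1.22, Zp2 -0.97 and Izumo1r -1.44, each adjusted p 0.0673), and 1 of 5 without either total RNA library of 0 h. Zp1 was then at -1.18 (0.0864) without replicate 1, and Zp2 at -0.94 (0.104) without replicate 2. Izumo1r passed in neither case, nor without ribosome-bound 2 h replicate 2 (-1.36, 0.0843) or total RNA 2 h replicate 1 (-1.17, 0.106). The estimates moved little, and the all-gene count itself ranged from 1 to 13 over the alternatives.

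From 4 h on, 4 of 5 genes had fallen beyond total RNA: at 4 h against 2.01% of genes, at 6 h against 4.37% and at 8 h against 9.43%. Zp1 was at -1.69, -1.77 and -1.73 at the 3 times, level from 4 h on. Zp2 reached -1.15, -1.27 and -1.77, and Zp3 reached -1.13, -1.20 and -1.61 (adjusted p 1.41e-05 at 8 h). Izumo1r was at -1.78, or -1.48 without ribosome-bound 4 h replicate 1, and then at -1.38 and -1.24. Cd9 passed at none of these times, at -0.83, -1.10 and -0.71 with a standard error of 0.49. Its 8 h interval of -1.73 to 0.31 includes 0 as well as the values of Zp3 and Izumo1r.

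How early the fall was reached differed between the genes. Taken as a share of the 8 h log2 change on ribosomes, Izumo1r had reached 85.5% at 2 h (81.4% to 89.9% when single libraries were left out) and Zp1 64.2% (59.1% to 68.5%). Zp2 had reached 52.8% (49.0% to 56.7%), Cd9 50.3% (42.6% to 61.4%) and Zp3 36.6% (28.8% to 42.9%). Over all 1648 genes that fell at 8 h, the median share at 2 h was 29.1%, with quartiles of 9.42% and 49.5%. A larger share than that of Izumo1r was found in 4.92% of these genes, and a larger one than that of Zp1 in 14.4%, against 40.3% for Zp3. At 4 h Zp1 had reached 91.4%, and Izumo1r was at 125%, beyond its 8 h level, or 105% without the library that stood apart. Zp2 and Zp3 were at 62.8% and 61.0% at 4 h and at 74.5% and 68.3% at 6 h, when the median of falling genes was 67.2%. The shares of all genes and of these 5 use the same 0 h libraries and carry no test.

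**Figure D4:**
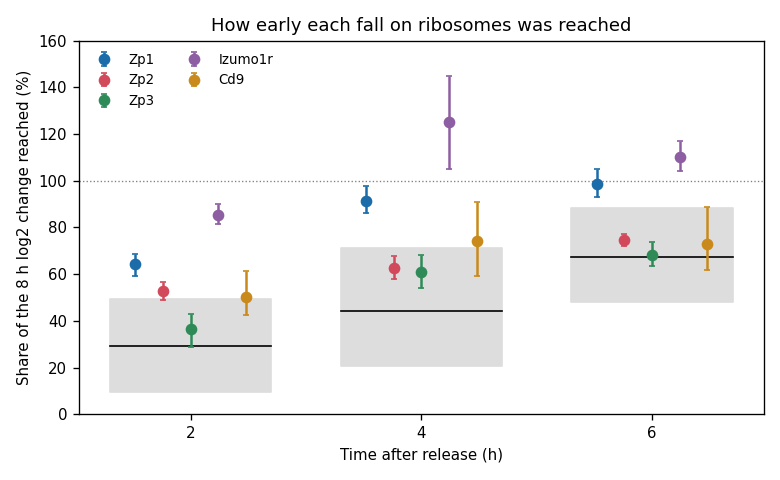
Share of the 8 h log2 change on ribosomes (%) reached at 2, 4 and 6 h for each gene, with bars from the lowest to the highest value when single libraries were left out; grey boxes give the quartiles and black lines the median of the 1648 genes that fell at 8 h. Izumo1r (85.5%) and Zp1 (64.2%) lie above the upper quartile at 2 h, and Zp3 (36.6%) lies within the box.

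The ratio of Zp1 to Zp3 within each library is free of the libraries' factors; it is made from the same values and is no separate evidence on timing. On ribosomes its log2 was -1.30 and -1.33 at 0 h, -1.85 and -1.84 at 2 h, -1.81 and -1.94 at 4 h, -1.90 and -1.83 at 6 h, and -1.22 and -1.14 at 8 h. The replicates were close, and the libraries of 2 h to 6 h all lay below those of 0 h and 8 h. In total RNA the same ratio lay between -1.10 and -0.65 in all 10 libraries, with both 8 h values, -0.65 and -0.76, at the upper end. The ratio of Zp2 to Zp3 on ribosomes was less even, at -0.62 and -0.17 in the 0 h replicates and -0.18 and 0.03 at 8 h.

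In arrested oocytes the 5 genes had high ribosome-bound values for their level in total RNA. The log2 ratios given here are the mean log2(value + 1) on ribosomes minus that in total RNA. The log2 of ribosome-bound over total value, minus that of the median gene, was 2.35 for Zp2 at 0 h, rank 10 of 7346 genes, 1.68 for Zp3 (rank 94), 1.62 for Cd9 (rank 114), 1.34 for Zp1 (rank 255) and 0.80 for Izumo1r (rank 1023). At 8 h it was 0.59 for Zp2 (rank 1385), 0.09 for Zp3 (rank 3253), -0.38 for Zp1 (rank 5510) and -0.43 for Izumo1r (rank 5693), while Cd9 was at 0.92 (rank 623). Izumo1r had its lowest ratio at 4 h (-0.97, rank 7061), a value that includes the library that stood apart. Zp1 was already at the median gene at 2 h (0.07). The tables were normalised separately, so only positions relative to other genes are given, and for Cd9 the 0 h position rests on total RNA values of 8.32 and 18.3.

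**Figure D5:**
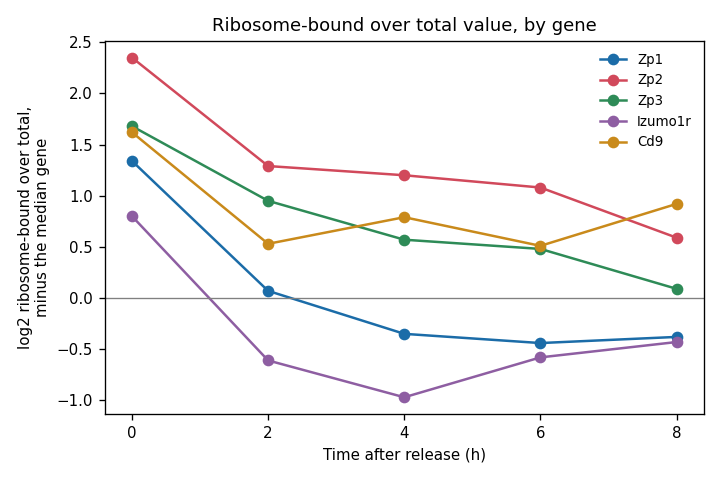
Mean log2(value + 1) on ribosomes minus that in total RNA, less this difference in the median gene, for each gene against hours after release. Zp2, Zp3, Zp1 and Izumo1r start at 2.35, 1.68, 1.34 and 0.80; at 8 h Zp2 is at 0.59, Zp3 at 0.09, and Zp1 and Izumo1r are below 0.

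Levels can be ordered between genes only per length of transcript. Per kilobase, ribosome-bound values at 0 h were 5383 ± 1300 (SD, n = 2) for Zp3, 2400 ± 50.7 for Zp2, 1460 ± 370 for Zp1, 283.9 ± 15.6 for Izumo1r and 28.24 ± 3.22 for Cd9. This order held at every time on ribosomes. In total RNA at 0 h the order was Zp3 (1905 ± 42.3), Zp1 (657.7 ± 56.6), Zp2 (546.2 ± 56.2), Izumo1r (188.3 ± 12.5) and Cd9 (10.82 ± 5.72). Zp1 and Zp2 changed places between the 2 kinds of RNA, and in total RNA at 8 h they differed by less than their spread (506.1 ± 14.8 and 491.8 ± 18).

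Among the other genes of zona formation, the oocyte transcription factors Figla, Lhx8 and Nobox fell on ribosomes, and Tcf3 and Tcf12 did not pass the test. Of 10 measured list members, 7 had fallen at 8 h and 0 had risen, or 4 and 0 of 7 without Zp1, Zp2 and Zp3, with a median of -0.65. Of all 7543 genes, 21.8% had fallen and 20.2% had risen at this time, and the median was -0.06. Figla, the factor that switches on all zona genes, went from 13.4 and 19.6 at 0 h to 2.39 and 3.51 at 8 h on ribosomes (-2.14 ± 0.52, adjusted p 0.00337). Lhx8, another oocyte transcription factor, went from 413 and 359 to 162 and 139 (-1.35 ± 0.16, 3.76e-06), and Nobox from 594 and 365 to 258 and 263 (-0.84 ± 0.20, 0.00336). In each of these the 8 h libraries lay below those of 0 h. Furin, a proprotein convertase, fell on ribosomes (-0.65 ± 0.19, 0.00954) while it rose in total RNA (0.67 ± 0.14, 0.0111). Tcf3 (-0.03), the partner of FIGLA, Tcf12 (-0.41) and Mgat1 (0.35) did not pass the test. None of these 7 had fallen on ribosomes at 2 h, when 0.742% of all genes had. The whole list, with most of its signal from Zp1, Zp2 and Zp3, held 1.85% and 1.50% of all ribosome-bound signal at 0 h (10 genes listed). At 8 h it held 0.458% and 0.372% there. In total RNA (9 genes listed) it held 0.618% and 0.631% at 0 h, then 0.485% and 0.487% at 8 h.

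Of 10 measured genes of the egg surface, 2 rose and 3 fell on ribosomes at 8 h. Without Izumo1r and Cd9 the count was 2 and 1 of 8, with a median of -0.23, near the shares of all genes (20.2% risen, 21.8% fallen). The integrin subunits Itga9 (157.5 and 183 at 0 h, 326 and 346 at 8 h, 0.98 ± 0.15, adjusted p 8.22e-05) and Itga6 (0.68 ± 0.18, 0.00516) rose, and Itgb3 fell (-0.60 ± 0.20, 0.0215). Itgb1, a beta integrin subunit of the egg membrane, was at 0.22 ± 0.30 (0.583). The tetraspanin Cd151 was at -0.45 (0.247), and Ptgfrn, an immunoglobulin-family partner of CD9, was at -0.28 (0.59). None of these 8 passed the test in total RNA at 8 h, where 239 of all 7917 genes fell and 75 rose.

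Genes of cortical granule release and the block to polyspermy, which act on the zona after fertilisation, fell on ribosomes by 8 h in 8 of 14 cases and rose in 2, with a median of -0.65, where 21.8% of all genes fell and 20.2% rose. Astl, which encodes ovastacin, was at 1258 and 880 at 0 h and at 580 and 786 at 8 h (-0.64 ± 0.19, adjusted p 0.0119). The 8 h libraries of Astl lay below both of 0 h, and its change compares with -1.92 to -2.24 for the zona genes. Among the membrane fusion genes, Napa (-1.60 ± 0.40, 0.00352), Stx4a (-1.23 ± 0.48, 0.0484) and Rab3a (-1.20 ± 0.37, 0.0142) fell and Snap23 rose (1.03 ± 0.23, 0.00158). The zinc importers Slc39a6 (-1.09 ± 0.15) and Slc39a10 (1.50 ± 0.13) moved in opposite directions. None of the 14 passed the test in total RNA at 8 h, where few genes did (239 of 7917 fell and 75 rose).

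The GPI anchor pathway, which JUNO needs to reach the membrane, had 3 of 15 genes rising, a share like that of all genes (20.2%), and 1 falling (21.8% of all genes) on ribosomes at 8 h, with a median of -0.03. Piga, of the enzyme that starts the anchor, rose (1.80 ± 0.31, adjusted p 0.000165), as did Pigf (1.66 ± 0.34) and Pigg (1.98 ± 0.47), which act in adding its phosphoethanolamine. Pigs, a subunit of the transamidase that attaches the finished anchor to proteins, fell (-1.97 ± 0.30, 5.69e-05). It went from 190 and 99.4 at 0 h to 45.0 and 26.2 at 8 h. None of the 15 genes of the pathway listed in total RNA passed the test there at 8 h, where 239 of 7917 genes fell and 75 rose. Beyond total RNA, 2 of 14 rose and 1 fell at 8 h, where 850 of 7346 genes rose and 693 fell.

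Across all 20 libraries, the 5145 genes with a mean value of at least 20 in both tables were ranked by Pearson correlation with each member of log2 values centred within each table. The libraries share time and RNA kind, so these values are descriptions. Closest to Zp1 were Ergic3 (r 0.946), Gdi2 (0.935) and Nrd1 (0.929), and the leading pair also headed the list of Izumo1r, as Gdi2 (0.920) and Ergic3 (0.916), followed by Rnf141 (0.901). Of the ranked genes, Zp2 was closest to Scg3 (0.956), Kat8 (0.955) and Maea (0.947), and Zp3 to Psmf1 (0.947), Pkm (0.939) and Noc4l (0.934). Cd9 had lower values, with Mars (0.788), Txn2 (0.779) and Tcea3 (0.765). Between members, Zp2 and Zp3 had the highest correlation (0.950), followed by Zp1 with Zp2 (0.929), with Izumo1r (0.918) and with Zp3 (0.916), while those with Cd9 lay between 0.569 and 0.669.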

How the data were processed

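Deposited values are scaled CPM, a signal relative to library size: as the column totals of 968768 to 1052767 show, the authors multiplied each library's CPM by a factor of its own, in 1 table per RNA kind. The submitters' processing notes name HISAT2, HTSeq, Trimmomatic 0.36, SAMtools, FastQC, limma and edgeR, and the build mm10, without their roles. Descriptions of the total RNA samples also call them ribosome-bound; titles and design were followed, and letters A and B became replicates 1 and 2. Both tables list only genes above a minimum.

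Here log2(value + 1) was fitted in limma 3.58.1 under R 4.3.3 (eBayes with a trend) over the 10 libraries of each table, and over all 20 for the interaction. A filter asked for a value of 1 in 2 libraries or more and removed no gene. Tests were two-sided, and p-values were adjusted over each comparison by Benjamini-Hochberg. The fit was tested on simulated data. Depth was inferred from value steps (100% whole within 0.01 of a read). GENCODE vM21 gave transcripts, with 8103 of 8114 gene IDs found. Alternatives were a pseudocount of 5, no filter, a mean of at least 20, median centring, a replicate block, fitting only the groups compared, and leaving out each library. The members and lists were chosen with earlier results of these data known. The genes named are the members and up to 4 list genes each way with the largest 8 h change on ribosomes past the threshold. Astl, Figla and Tcf3 were also named, and so were the 3 ranked genes most like each member. Tcf12, Mgat1, Itgb1, Cd151, Ptgfrn, Pecam1, Tek, Amh and Foxl2 were named after their values were seen.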

Additional observations from a re-analysis of the deposited data

Results flagged for a closer look

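Of the values above, 15 stand here because the change on ribosomes differed from the change in total RNA by the interaction test, at an adjusted p under 0.05 in limma over 7346 genes. Values are log2 changes from 0 h on ribosomes minus those in total RNA. At 2 h they were -1.27 for Zp1, -1.05 for Zp2 and -1.40 for Izumo1r. At 4 h they were -1.69 for Zp1, -1.15 for Zp2, -1.13 for Zp3 and -1.78 for Izumo1r. At 6 h they were -1.77 for Zp1, -1.27 for Zp2, -1.20 for Zp3 and -1.38 for Izumo1r. At 8 h they were -1.73 for Zp1, -1.77 for Zp2, -1.61 for Zp3 and -1.24 for Izumo1r. The 0 h libraries enter all of them, so the 4 times are not independent of one another.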

How the results depend on the processing

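Dropping the filter changed nothing, since it had removed no gene. Of 747 other recomputed values of the members' log2 changes, 713 kept their direction and side of the threshold, 18 lost a call, 4 gained one and 12 changed sign. On ribosomes at 2 h, leaving out single libraries gave 2 to 4 members called (4 with all). In total RNA at 8 h it gave 0 to 1, and beyond total RNA at 2 h 0 to 3. Fitting only the groups compared gave 2 called from 2 h to 4 h (Zp1 and Zp3, adjusted p 0.018 each) and 1 from 6 h to 8 h. It also ended the call of Zp3 at 2 h (0.0538), and a mean of at least 20 gave 1 called from 6 h to 8 h. The shares of the 8 h change reached at each time moved by less than their spread. That spread is taken over choices of single libraries of the same groups, so leaving a library out could hardly exceed it.

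Signs that changed were of differences that passed no test. With single libraries left out, the change on ribosomes from 4 h to 6 h ran from -0.09 to 0.51 for Izumo1r and from -0.13 to 0.16 for Cd9 (-0.08 without 6 h replicate 1), and that of Zp1 from 6 h to 8 h ran from -0.16 to 0.10. In total RNA, Zp2 ran from -0.07 to 0.14 at 2 h and from -0.16 to 0.05 at 4 h, and Izumo1r from -0.11 to 0.35 at 2 h. Cd9 there ran from -0.38 to 0.67 at 4 h (-0.01 without 4 h replicate 1), from -0.09 to 0.95 at 6 h and from -0.74 to 0.31 at 8 h. The cause was not tested.

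Counts of all genes that fell ranged on ribosomes from 9 to 88 at 2 h (56 in the fit reported), 184 to 530 at 4 h (495), 555 to 1050 at 6 h (1006), 0 to 13 from 2 h to 4 h (2), 0 to 7 from 4 h to 6 h (0) and 3 to 110 from 6 h to 8 h (45). In total RNA they ranged from 0 to 13 at 6 h (2) and 46 to 286 at 8 h (239), and beyond total RNA from 1 to 13 at 2 h (6), 46 to 174 at 4 h (148), 171 to 349 at 6 h (321) and 445 to 736 at 8 h (693). Centring libraries on their medians turned 55 up and 56 down at 2 h on ribosomes into 80 up and 50 down.

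A replicate block changed no count of members called (4 on ribosomes at 2 h, 5 at 8 h). The numbers were not taken to pair the samples: deviations of same-numbered libraries correlated at -0.11 to 0.05 on ribosomes, -0.06 to 0.13 in total RNA and -0.08 to 0.04 between the kinds. A count test on recovered reads was planned and not run, since the values are scaled CPM and the reads behind them are only inferred. With 2 libraries a group, small changes of Cd9 were not detectable.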

Other observations

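The zona genes share very short 3' UTRs, and the other genes with 3' UTRs of at most 60 bases had fallen on ribosomes more often than the rest at 6 h and 8 h. This split was chosen after the values were seen, leaves out the 5 genes described above, and carries no test. At 8 h, 62 of 121 such genes had fallen (51.2%) with a median log2 change of -0.72, against 21.8% of the 7086 genes with longer 3' UTRs. At 6 h the shares were 28.9% and 13.4%, and at 4 h 4.96% and 6.75%. At 2 h 0 of the 121 and 0.720% of the 7086 had fallen in limma, too few to compare, with medians of -0.13 and 0.01; Zp1, Zp2 and Zp3 were then at -1.35, -1.01 and -0.82. In total RNA 15.6% of genes with such 3' UTRs had fallen at 8 h, against 2.82% of the others. Beyond total RNA at 8 h the gap was smaller: 15.8% of 120 such genes had fallen, against 9.52% of 6915, with medians of -0.38 and -0.02. Genes whose 3' UTR held neither TTTTAT nor TTTTAAT had fallen on ribosomes at 8 h in 986 of 2470 cases, against 618 of 4737 genes that held one. Between 61 and 400 bases, a range that holds Izumo1r and Cd9, the shares were 45.7% of 1030 without and 15.7% of 433 with such letters.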
